A study of Cavia porcellus with 24 samples.

Results

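At short stretches of DNA assigned to *DHRS3*, *FXYD6* and *MEF2C*, most reads were methylated in the hippocampus and a smaller share in whole blood, and the pools of animals exposed to synthetic glucocorticoid (sGC) before birth were lower than the control pools in both tissues. These genes are 3 of those for which the study lists differentially methylated CpG sites (DMCs) common to both tissues, and they are described side by side because the hippocampus was the more methylated tissue. The sites at the ends of each gene's list mark an interval, and a window adds 2 kb on each side. Every cytosine of either strand in a window is a member. There were 62 members among the 2869370 cytosines listed in the hippocampus and 61 among the 2927801 in the blood, or 63 in all and 60 in both tissues, with 28 in *DHRS3*, 32 in *FXYD6* and 3 in *MEF2C*.

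Hippocampus and whole blood came from the same 12 female Hartley guinea pigs, 1 per litter, on postnatal day 14. The mothers of 6 animals had received betamethasone, an sGC, by injection under the skin at 1 mg/kg in 3 courses of 2 days each, which began on gestational days 40, 50 and 60. The mothers of the 6 controls had received saline. Reduced representation bisulfite sequencing (RRBS) reads CpG-rich fragments after unmethylated cytosines have been converted. The percentage of reads keeping a cytosine is called its methylation here. It includes any other modified form of cytosine that resists conversion, in either tissue. The deposited counts are summed over the 6 animals of a group. Each of the 4 pools therefore gives 1 value per cytosine, and these counts hold no spread between animals or litters at a cytosine. Intervals in brackets are 95% Wilson intervals for a percentage and 95% score intervals for a difference, and cover counting error only. A pooled percentage is taken over all cells of a tissue, so that a different share of cell types and a change within cells cannot be told apart.

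DNA methylation in mammals sits mainly on the cytosine of CpG pairs, is copied at cell division, and differs between cell types most at regulatory sequences. *DHRS3* encodes a short-chain dehydrogenase/reductase that turns retinaldehyde back into retinol and so holds down retinoic acid, a signal in the development of brain and blood cells. *FXYD6* encodes a small membrane protein, also called phosphohippolin, of the FXYD family, whose members modulate the sodium pump. *MEF2C* is a MADS-box transcription factor of neurons, where it acts on differentiation and synapse number, and it also functions in B cells and myeloid cells. The gene assignments are those of the study. The exon, intron or promoter of each interval was not analysed here, since a genome of the build, cavPor3, was not used.

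The intervals were chosen by the differences between sGC and control pools in both tissues, and the genes were selected on the level in the hippocampus. Levels and changes inside the intervals, and at cytosines within 200 bp of them, are therefore given as a description with no test. The 27 cytosines further out in the windows are called flanks. Tests were run on the flanks, which by this rule hold no common DMC of the gene's list.

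Over the 13 cytosines of the *DHRS3* interval (scaffold DS562880.1, 21996246 to 21996499), 547 of 828 readings were methylated in the sGC hippocampus (66.1%), 767 of 993 in the control hippocampus (77.2%), 42 of 954 in the sGC blood (4.40%) and 163 of 1049 in the control blood (15.5%). A reading is 1 read at 1 cytosine, and neighboring cytosines share reads. At the 10 cytosines of the *FXYD6* interval (DS562874.1, 30215935 to 30216061), the methylation was 78.7% of 1472 readings in the sGC hippocampus, 87.8% of 1308 in the control hippocampus, 8.42% of 1828 in the sGC blood and 17.2% of 1380 in the control blood. The 2 cytosines of the *MEF2C* interval (DS562856.1, 16250330 to 16250396) gave 73.7% of 247 readings in the sGC hippocampus, 82.7% of 133 in the control hippocampus, 22.5% of 302 in the sGC blood and 44.4% of 189 in the control blood. Each tissue was thus lower in its sGC pool at all 3 genes, and the blood was below the hippocampus in either exposure.

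By level, the order in the control hippocampus was *FXYD6* [86.0 to 89.5], *MEF2C* [75.4 to 88.2] and *DHRS3* [74.5 to 79.7], and the Wilson interval of *MEF2C* overlapped those of both other genes. In the control blood the order was *MEF2C* [37.5 to 51.6], *FXYD6* [15.3 to 19.3] and *DHRS3* [13.5 to 17.9], and the last 2 overlapped. Shared reads make these intervals too narrow, and the order is a description of levels that the selection used.

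**Figure D1:**
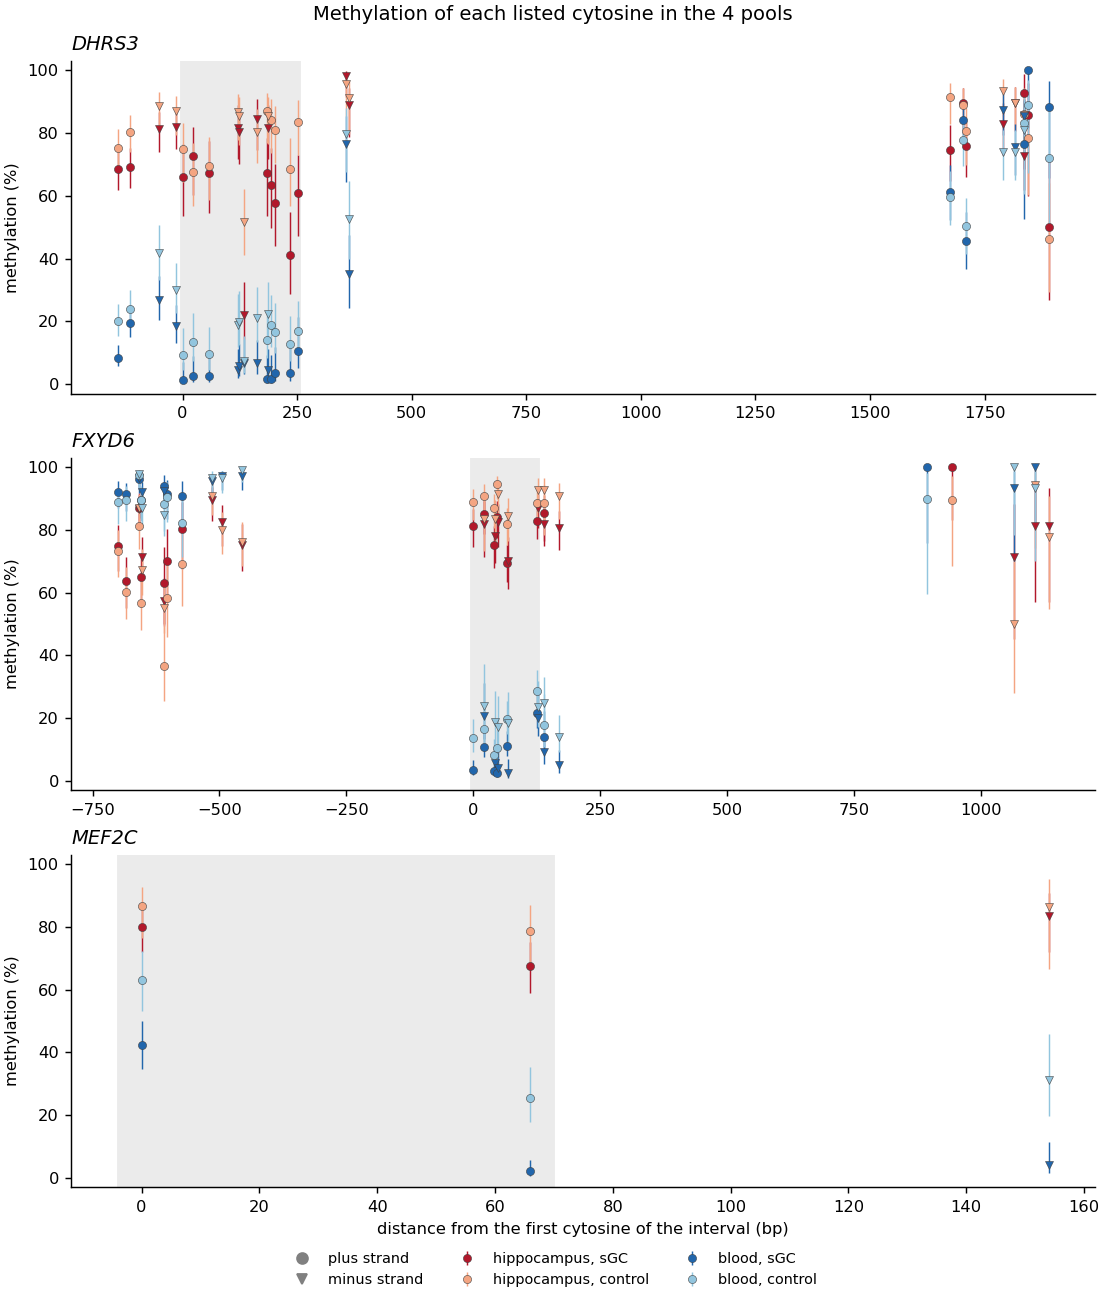
Methylation (%) of each listed cytosine in the 4 pools against its distance in bp from the first cytosine of the interval, for *DHRS3*, *FXYD6* and *MEF2C*. Circles are plus-strand and triangles minus-strand cytosines, bars are 95% Wilson intervals, and gray bands mark the intervals, where the blood pools lie below the hippocampus pools at all 25 cytosines. In the *FXYD6* flank before the interval, the blood pools lie above the hippocampus pools.

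The plus strand of *DHRS3* fell into 2 groups of cytosines that share reads. At 21996246, 66.1% of 62 reads were methylated in the sGC hippocampus and 75% of 80 in controls, and 1 of 78 and 7 of 75 reads in the blood. At 21996268 the hippocampus had the opposite sign, 72.6% with sGC exposure and 67.5% in controls, while the blood had 2.56% and 13.3%. At 21996304 the hippocampus was at 67.2% and 69.6% and the blood at 2.56% and 9.46%. In this first group the differences in the hippocampus were thus of both signs, at -8.87, 5.08 and -2.41 percentage points.

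From 21996431 on, the plus strand of *DHRS3* had wider differences in the hippocampus. At 21996431, 67.3% of 52 reads [53.8 to 78.5] were methylated with sGC exposure and 87.0% of 69 [77.0 to 93.0] in controls. At 21996438 the values were 63.5% and 84.1%, and at 21996448 they were 57.7% and 81.2%. These cytosines have the same coverage in a pool and repeat much of the same reads. At 21996480, 41.2% of 51 reads [28.8 to 54.8] were methylated with sGC exposure and 68.7% of 67 [56.8 to 78.5] in controls, and at 21996499 the values were 60.8% and 83.6%. The differences over these 5 cytosines lay between -27.5 and -19.6 percentage points in the hippocampus. In the blood the same 5 cytosines were at 1.75%, 1.75%, 3.51%, 3.57% and 10.7% with sGC exposure, against 14.1%, 18.8%, 16.5%, 12.9% and 17.1% in controls.

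At 4 of the 5 minus-strand cytosines of the *DHRS3* interval the tissues changed places, with small differences in the hippocampus and wider ones in the blood. At 21996368, 81.8% of 77 reads were methylated in the sGC hippocampus and 86.7% of 83 in controls, and 4.60% of 87 and 18.8% of 80 in the blood. The adjacent 21996370 was at 80.5% and 85.4% in the hippocampus and at 5.75% and 19.8% in the blood. At 21996409 the hippocampus was higher with sGC exposure, 84.4% against 80.5%, and the blood lower, 6.82% against 21.0%. For 21996432, the partner of the plus-strand cytosine 21996431 in the same CpG, the hippocampus was at 81.8% and 85.5% and the blood at 4.55% and 22.2%. The hippocampal difference of that CpG was -3.72 on the minus strand and -19.6 on the plus strand.

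The remaining minus-strand cytosine, 21996380, went the other way and stood apart from the others of the *DHRS3* interval. In the hippocampus, 17 of 77 reads (22.1%) [14.3 to 32.5] were methylated with sGC exposure and 43 of 83 (51.8%) [41.2 to 62.2] in controls, the lowest level of the interval in both pools. Its neighbors 10 and 29 bp away were at 80.5% or more. In the blood, 6 of 87 reads (6.90%) and 6 of 80 (7.5%) were methylated. It therefore had the widest difference of the interval in the hippocampus, -29.7 percentage points, and the narrowest in the blood, -0.603. The plus-strand cytosine of this CpG is not among the listed cytosines.

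Of the 13 cytosines of the *DHRS3* interval, 11 in the hippocampus and 13 in the blood were lower with sGC exposure. The median difference in percentage points was -8.87 for the hippocampus and -12.4 for the blood. The 6 cytosines within 200 bp had the same pattern, with 5 in the hippocampus and all 6 in the blood being lower. At 21996105, 8.43% of 261 reads were methylated in the sGC blood and 20.1% of 234 in controls, whereas at 21996603 the values were 76.7% of 60 and 79.7% of 59, 21.7 and 16.0 percentage points below the 98.4% and 95.7% of the hippocampus. At 21996610, only 7 bp on, the blood was again lower, at 35.0% and 52.5%.

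In the *FXYD6* interval, 4 CpGs were read on both strands. Summed by strand, the differences of sGC and control were -9.51 percentage points on the plus and -8.20 on the minus strand for the hippocampus, and -7.83 and -12.2 for the blood. The plus-strand cytosine 30215935 was methylated in 81.3% of 155 reads in the sGC hippocampus, 89.0% of 155 in the control hippocampus, 3.49% of 229 in the sGC blood and 13.6% of 169 in the control blood. At the CpG 30215955/30215956, the plus strand was at 85.2% and 91.0% in the hippocampus and at 11.0% and 16.6% in the blood. Its minus strand was at 81.9% and 83.6% in the hippocampus and at 20.8% and 24.0% in the blood, with as few as 50 reads. The first value of each pair is the sGC pool here and in the next paragraph, and it was the lower one throughout.

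At the CpG 30215976/30215977, the plus strand of *FXYD6* was at 75.2% and 87.0% in the hippocampus and at 3.10% and 8.28% in the blood, and the minus strand was at 78.1% and 83.7%, and at 5.69% and 18.8%. The next CpG, 30215982/30215983, had the highest level of the interval in the control hippocampus, 94.7% of 151 reads [89.9 to 97.3], against 84.2% of 152 [77.6 to 89.2] with sGC exposure. In the blood its plus strand was at 2.67% and 10.7%. On its minus strand the hippocampus was at 82.5% and 91.3% and the blood at 4.07% and 17.3%. The blood thus held a few methylated reads at this CpG in controls and fewer with sGC exposure, on either strand.

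The CpG 30216002/30216003 had the widest differences of the *FXYD6* interval in the hippocampus on both strands. Its plus strand was methylated in 69.6% of 237 reads [63.5 to 75.1] in the sGC hippocampus and 81.9% of 166 [75.4 to 87.0] in controls, and in 11.2% of 249 and 19.8% of 217 in the blood. On the minus strand the hippocampus was at 70.2% and 84.6%, and the blood had 3 methylated reads of 123 with sGC exposure and 15 of 81 in controls. The last cytosine, 30216061, was at 83% and 88.7% in the hippocampus and at 21.8% and 28.7% in the blood, the highest blood level of the interval. Every one of the 10 cytosines of the *FXYD6* interval, and the 4 cytosines within 200 bp after it, was lower with sGC exposure in both tissues. The differences in the interval lay between -14.4 and -1.62 percentage points in the hippocampus and between -16.1 and -3.22 in the blood, with medians of -8.32 and -8.28.

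*MEF2C* had a single cluster of 3 cytosines and no flank cytosine. At 16250330, on the plus strand, 79.8% of 124 reads [71.9 to 86.0] were methylated in the sGC hippocampus, 86.6% of 67 [76.4 to 92.8] in the control hippocampus, 42.2% of 154 [34.7 to 50.1] in the sGC blood and 63.2% of 95 [53.1 to 72.2] in the control blood. At 16250396, also on the plus strand, the hippocampus was at 67.5% of 123 [58.8 to 75.1] and 78.8% of 66 [67.5 to 86.9]. The blood there had 3 methylated reads of 148 with sGC exposure (2.03%) and 24 of 94 in controls (25.5%). The minus-strand cytosine 16250484, which lies 88 bp after the interval, was at 83.3% of 60 and 86.4% of 22 in the hippocampus, and at 4.11% of 73 and 31.1% of 45 in the blood. Within 66 bp, the control blood went from 63.2% to 25.5%, and the control hippocampus from 86.6% to 78.8%.

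**Figure D2:**
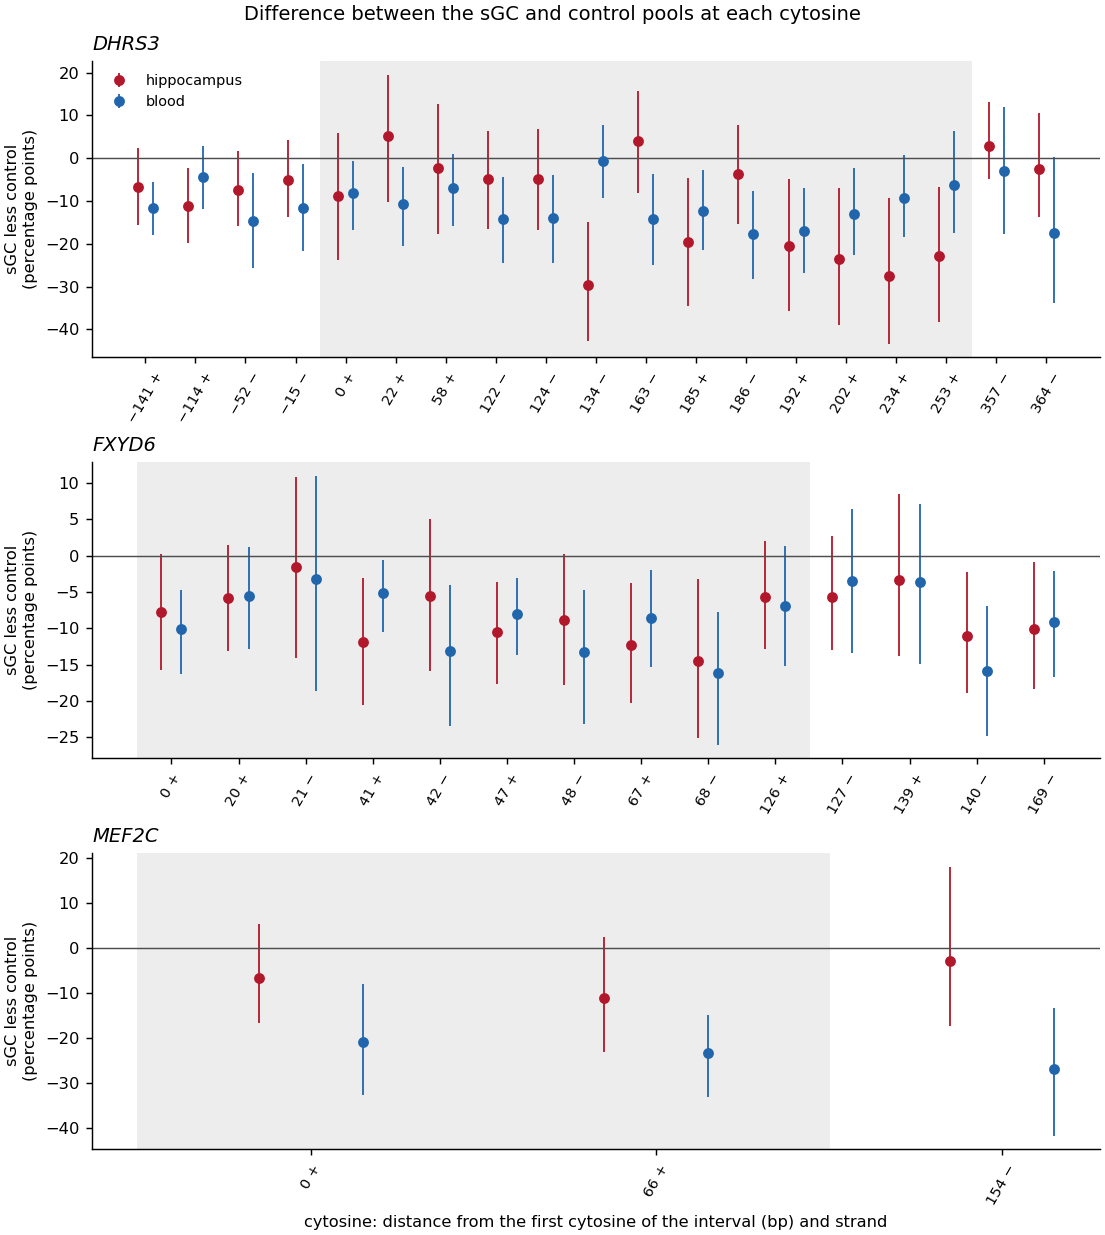
Difference of the sGC pool less the control pool, in percentage points, at each cytosine of the intervals (gray) and within 200 bp of them, labeled by its distance in bp from the first cytosine of the interval and its strand. Bars are 95% score intervals of the difference. All 36 cytosines are below 0 in the blood and 33 in the hippocampus, and the exceptions are 3 cytosines of *DHRS3*.

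When the *DHRS3* interval was summed, the hippocampus differed by -11.2 percentage points [-15.3 to -7.03] and the blood by -11.1 [-13.7 to -8.59]. For *FXYD6* the values were -9.11 [-11.8 to -6.35] and -8.82 [-11.2 to -6.48], and for *MEF2C* -9.02 [-17.0 to -0.101] and -21.9 [-30.3 to -13.4]. With the strands summed, the tissues thus moved by near equal amounts at *DHRS3* and *FXYD6*. Shared reads make these intervals too narrow. In the hippocampus, those of the single *MEF2C* cytosines 16250330 [-16.8 to 5.14] and 16250396 [-23.2 to 2.33] span both signs. By strand the values were -14.2 for the hippocampus and -10.8 for the blood on the plus strand of *DHRS3*, -7.84 and -12.1 on its minus strand, -9.51 and -7.83 on the plus strand of *FXYD6*, and -8.20 and -12.2 on its minus strand. The gap of blood less hippocampus was -61.7 in both exposures for *DHRS3*, and -70.6 in controls and -70.3 with sGC exposure for *FXYD6*. For *MEF2C* the gap went from -38.3 in controls to -51.2 with sGC exposure. As a ratio of the percentages, the sGC pool held 0.855, 0.896 and 0.891 of the control level in the hippocampus for *DHRS3*, *FXYD6* and *MEF2C*, and 0.283, 0.488 and 0.507 in the blood. Whether the change differed between the tissues was not tested inside the intervals, because the rule drew on both changes.

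Coverage also differed between the pools at *MEF2C*. Over its interval the sGC pool had a median of 1.86 reads per control read in the hippocampus, above 99% of the cytosines of the tissue, and 1.60 in the blood, above 91.0%. Across the series the median ratio was 1.08 for the hippocampus and 1.20 for the blood. The *DHRS3* interval lay on the other side, with 0.775 in the hippocampus (percentile 10.4) and 1.04 in the blood (percentile 24.1), and *FXYD6* was in the middle, with 1.05 (percentile 44.4) and 1.35 (percentile 73.0). The part of coverage in the differences was not tested.

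In all, 3 clusters of listed cytosines lay in the flanks, 1 after the *DHRS3* interval and 1 on each side of the *FXYD6* interval. None of the 26 flank cytosines tested in the hippocampus was called different between sGC and control (Fisher's exact test of the pooled reads, two-sided, Benjamini-Hochberg adjustment over the tissue, adjusted p below 0.05 and at least 5 percentage points), and 3 had an unadjusted p below 0.05. In the whole hippocampus table, 0.0729% of cytosines were called higher and 0.0391% lower. In the blood, 0 of 25 were called, 2 had an unadjusted p below 0.05, and 0.192% and 0.125% of the table were called higher and lower. The chi-square test divided by its inflation factor also called 0 in either tissue, against 0.00864% higher and 0.0115% lower in the hippocampus table and 0.0169% and 0.0322% in that of the blood. Such tests compare pools of reads and not animals. Each interval ends at the outermost common DMCs of its gene, so no flank cytosine is one of them. With that rule and the small shares of the series, counts of 0 were largely set beforehand, and no conclusion is drawn from them. The smallest p was at the *FXYD6* cytosine 30215325, where 36 of 57 reads (63.2%) were methylated in the sGC hippocampus and 22 of 60 (36.7%) in controls (exact p = 0.00552, adjusted 0.534). Its partner on the other strand, 30215326, which had the most reads of the *FXYD6* flanks, differed by 2.20 percentage points, at 57.3% of 157 and 55.1% of 156.

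At *FXYD6*, 13 of 17 flank cytosines were higher with sGC exposure in the hippocampus and 11 of 16 in the blood, and the medians were 3.47 and 1.47 percentage points. Over all cytosines listed in both tissues, fewer than 50% were lower, at 43.0% in the hippocampus and 45.5% in the blood. Neighbors share reads, so nothing is concluded from these counts or from those at *DHRS3* below. In the cluster before the interval, 456 bp or more away, 1142 of 1533 readings (74.5%) were methylated in the sGC hippocampus and 1102 of 1560 (70.6%) in controls, and 93.7% of 1804 and 91.8% of 1483 in the blood. The hippocampal difference of that cluster was 7.72 percentage points [2.82 to 12.6] on the plus strand, with 7 of 7 cytosines higher, and 0.818 [-3.23 to 4.86] on the minus strand, with 3 of 6 higher. The cluster after the *FXYD6* interval had 5 cytosines with 10 to 19 reads each, of which 2 were listed in both tissues. At *DHRS3*, 5 of 9 flank cytosines were lower and 4 higher in the hippocampus, with a median of -0.13 percentage points, and 7 of 9 were higher in the blood. Summed over the 9, 429 of 533 readings (80.5%) were methylated in the sGC hippocampus and 456 of 533 (85.6%) in controls. The difference was -5.07 percentage points [-9.57 to -0.55]. In the blood the values were 73.9% of 701 and 70.1% of 743, a difference of 3.77 [-0.86 to 8.38]. Neighboring cytosines share reads, so the intervals of these summed differences, also those at *FXYD6*, are too narrow. At 21997920, one of the most covered there, the hippocampus was at 74.7% of 87 reads with sGC exposure and 91.7% of 72 in controls (exact p = 0.00617, adjusted 0.557), and the blood at 61.4% of 114 and 59.7% of 119. At 21998036 the tissues had opposite signs, with the hippocampus at 82.9% against 93.4% and the blood at 87.3% against 73.9%. The difference between the tissues in the sGC change was called at 0 of 24 flank cytosines by the z test on the log odds ratios, for which 0.00121% and 0.00913% of all cytosines in both tables were called with the blood change higher and lower. The unadjusted p was below 0.05 at 3, all in *DHRS3*, and was smallest at 21998036.

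The order of the tissues in the flanks could be tested, since the intervals were placed by other cytosines. At the *FXYD6* flanks the blood was the more methylated tissue, with 12 of 15 cytosines called higher in the blood of controls (Fisher's exact test over the cytosines of both tables, adjusted p below 0.05 and at least 10 percentage points) and 0 lower. In the control pools of the series, 15.3% of the cytosines were called higher and 4.43% lower in the blood. Among the sGC pools, 10 of the 15 were called higher and 0 lower, against 15.6% and 5.01% of the series. Of the 15, 13 lie in 1 cluster of 245 bp, where neighboring cytosines share reads. The calls are thus not independent, and no enrichment over the series is read from them. By the chi-square test divided by its inflation factor, 4 of the 15 were still called higher in controls (30215281, 30215325, 30215326 and 30215479) and 2 in the sGC pools (30215251 and 30215326), against 5.09% and 5.9% of the series. The factor is the median statistic of the series over its median when nothing differs. Between tissues it therefore also takes in real differences, and the test is strict. The blood thus went from above the hippocampus to far below it within the 456 bp that separate the cluster before the interval from the interval.

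In the control pools, the cytosines of *FXYD6* called on the plus strand were 30215235 (hippocampus at 73.3% and blood at 88.8%), 30215251 (60.3% and 89.7%), 30215276 (81.4% and 97.4%), 30215281 (56.6% and 89.7%), 30215325 (36.7% and 88.2%) and 30215332 (58.3% and 90.6%). On the minus strand they were 30215277 (87.1% and 97.9%), 30215282 (67.1% and 87.1%), 30215326 (55.1% and 84.7%), 30215440 (80.0% and 96.7%), 30215479 (76.3% and 99.2%) and, after the interval, 30216999 (8 of 16 reads and 14 of 14). The hippocampus varied from 36.7% to 90.9% over the 13 cytosines before the interval, and the blood from 82.1% to 99.2%. Of the 12, only 30215276 and 30216999 were not called in the sGC pools, where they differed by 9.21 and 21.9 percentage points. At 30215325, the cytosine with the widest gap of that cluster in controls, 51.6 percentage points (adjusted p = 1.79e-09), the gap of the sGC pools was 30.8 (adjusted p = 9.30e-05, both Fisher's exact test).

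In the *DHRS3* flank, which began 1310 bp after the last cytosine near the interval, 4 of 9 cytosines were called lower in the blood of controls and 1 of 9 in the sGC pools, against 4.43% and 5.01% of the series, and 0 were called higher. These 9 cytosines also lie in 1 cluster, and many share reads, so the calls are not independent. None of these calls was kept by the chi-square test divided by its inflation factor, which called 1.58% of the series lower in controls and 1.97% in the sGC pools. Since that factor takes in real tissue differences, the loss does not decide whether the tissues differ here. The 4 were 21997920 (91.7% in the control hippocampus and 59.7% in the control blood), 21997955 (80.6% and 50.4%), 21998036 (93.4% and 73.9%) and 21998063 (89.7% and 73.9%). Only 21997955 was called in the sGC pools as well, with 75.9% and 45.6%. The tissues were much closer here than in the interval, with 85.6% of 533 readings in the control hippocampus and 70.1% of 743 in the control blood, and 80.5% and 73.9% in the sGC pools. At the last cytosine, 21998136, the blood was above the hippocampus, with 13 of 18 reads against 13 of 28 in controls. With sGC exposure it had 15 of 17 against 7 of 14. Neither difference was called (Fisher's exact test, unadjusted p = 0.129 and 0.0439, adjusted 0.362 and 0.155).

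**Figure D3:**
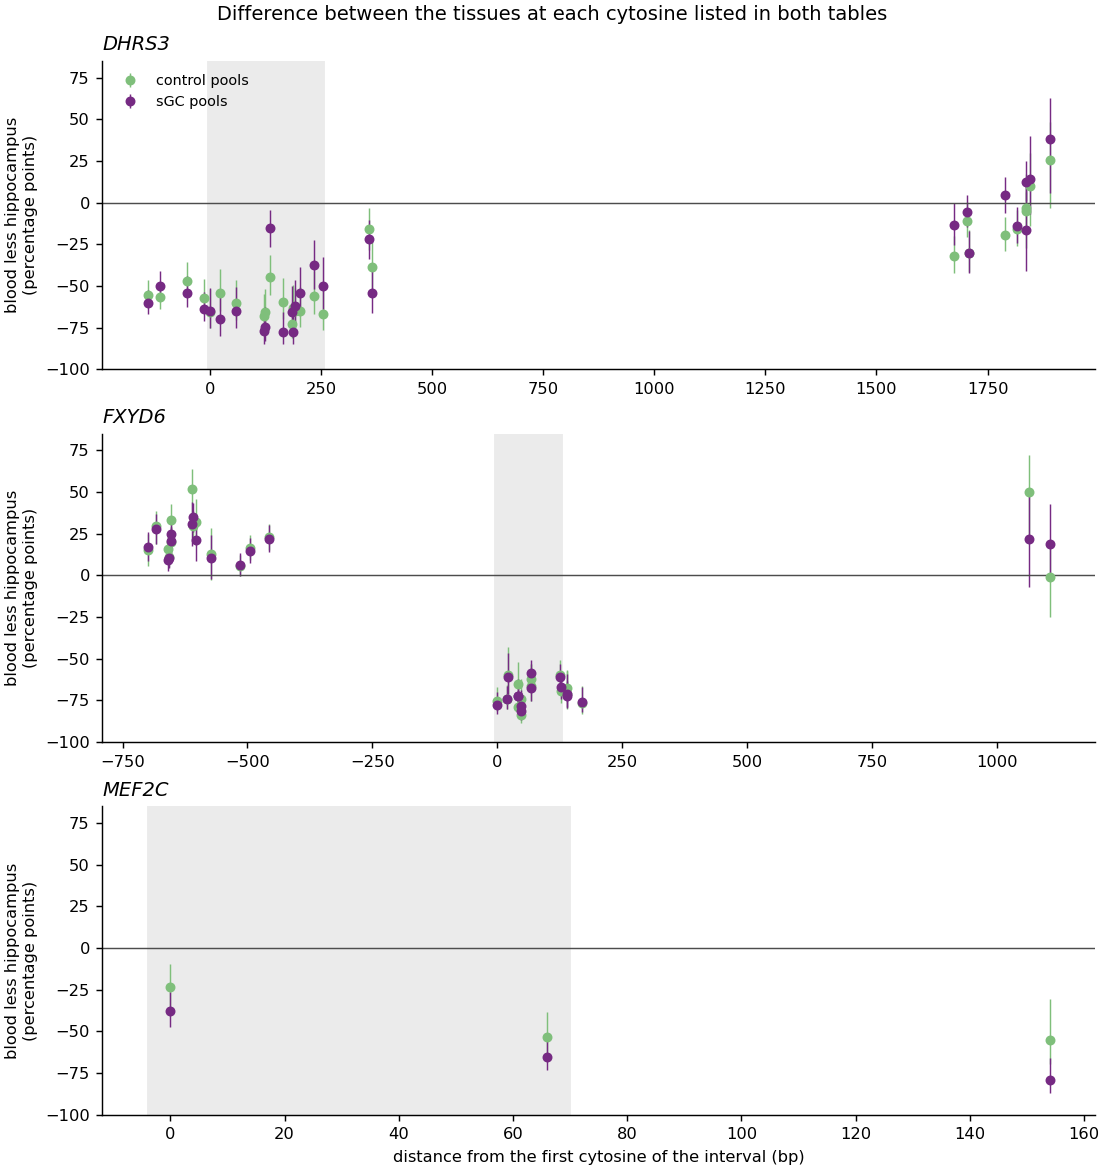
Difference of blood less hippocampus, in percentage points, at each cytosine listed in both tables, for the control pools (green) and the sGC pools (purple), against the distance in bp from the first cytosine of the interval (gray). Bars are 95% score intervals of the difference. All 25 interval cytosines are below 0 in both exposures, and the 13 cytosines before the *FXYD6* interval are above 0.

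The strands of a CpG are read from different fragments. There were 11 CpGs listed on both strands in each tissue, 9 in *FXYD6* and 2 in *DHRS3*. At the 7 in or within 200 bp of an interval, whose levels the selection used, the strands of the control pools differed by up to 7.41 percentage points in the hippocampus and by up to 10.5 in the blood. Of the 4 flank CpGs, none was called different between the strands of a control pool in either tissue (Fisher's exact test over all CpGs read on both strands, adjusted p below 0.05 and at least 10 percentage points), and 1 in the hippocampus and 0 in the blood had an unadjusted p below 0.05. In the series, 0.693% of such CpGs were called higher and 0.723% lower on the plus strand in the hippocampus, against 0.545% higher and 0.577% lower in the blood. At these depths a difference as wide as that of 30215325/30215326 in the control hippocampus, 36.7% of 60 reads against 55.1% of 156, did not pass (exact p = 0.0222, adjusted 0.517). At the 4 flank CpGs, sGC and control differed in the same direction on both strands at 2 for the hippocampus and 3 for the blood.

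A large gap between the tissues is itself uncommon in the series and goes with the direction of the sGC change. With the sGC and control pools of a tissue averaged, the hippocampus was at least 40 percentage points above the blood at 41097 of the 2564116 cytosines listed in both tables (1.60%). This held for 23 of the 25 interval cytosines, 10 of the 11 within 200 bp, and 0 of the 24 in the flanks. The exceptions in the intervals were 21996380 of *DHRS3* and 16250330 of *MEF2C*, with gaps of 29.7 and 30.5.

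Among all those 41097 cytosines, 67.4% were lower with sGC exposure in the hippocampus, 77.6% in the blood and 54.2% in both. Their median difference was -3.69 percentage points in the hippocampus (quartiles -8.87 and 1.89) and -5.04 in the blood (-9.09 and -0.636). Over all cytosines listed in both tables, 43.0% were lower in the hippocampus, 45.5% in the blood and 20.8% in both, with medians of 0.667 and 0.449. Where the blood was at least 40 percentage points above the hippocampus, at 120817 cytosines, only 6.78% were lower in both tissues, and the medians were 5.93 and 5.46. The medians over the 25 interval cytosines were -8.87 for the hippocampus and -10.8 for the blood, and 23 of them were lower in both. They were chosen for this difference, so that nothing particular to *DHRS3*, *FXYD6* and *MEF2C* can be read from it. The cell makeup of the tissues was not measured, and its part in these differences was not tested.

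**Figure D4:**
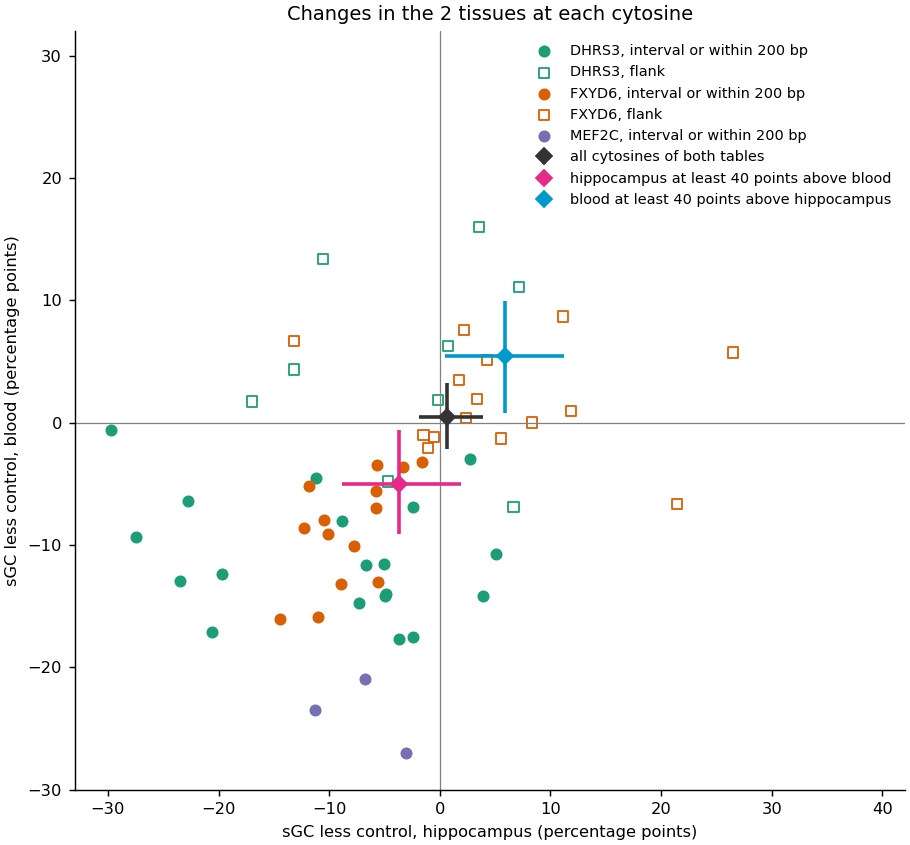
Difference of sGC less control in the hippocampus (horizontal) and in the blood (vertical), in percentage points, at the 60 cytosines listed in both tissues. Filled circles are cytosines in or within 200 bp of an interval and open squares are flank cytosines. Diamonds with bars are medians and quartiles over all cytosines of both tables, over those with the hippocampus at least 40 percentage points above the blood (-3.69 and -5.04), and over those with the reverse gap (5.93 and 5.46).

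The ends of the windows are set by distance and not by any value. The last listed cytosine before the *DHRS3* window, 1009 bp outside it, was at 70.5% and 84.9% in the sGC and control hippocampus and at 80.5% and 75.5% in the blood, and the first after it was at 87.2% and 70.0%, and at 78.1% and 82.7%. Those next to the *FXYD6* window were at 89.1% or more in all 4 pools. Around *MEF2C*, the nearest cytosine before the window lay 18743 bp away, with the hippocampus at 52.1% and 42.9% and the blood at 84.4% and 88.9%, and the nearest after it, with 11 to 22 reads, at 83.3% and 54.5%, and at 100% and 83.3%. None of these neighbors had the pattern of the intervals, with the hippocampus far above the blood.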

How the data were processed

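Per the labels and the methods of the study, reads were trimmed by the authors (Trim Galore, then the kit maker's script), aligned to cavPor3 with Bismark 0.16.0, sorted with SAMtools 1.7 and passed to MethPipe with batch as a covariate. They deposited, per tissue, the counts of methylated reads and the coverage (total reads) of each cytosine, both as sums over a group's 6 animals and with a coverage of at least 10 in each group. An FDR column from their own comparison was not used. Whether positions are counted from 0 or 1 is not given in the sources used here.

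Percentages, differences (sGC less control, blood less hippocampus), Wilson and score intervals and tests were computed from these counts, and p-values were adjusted over all cytosines of a table. The strand test, planned for every CpG of the windows, is given for the flanks. The z test used log odds ratios with 0.5 added to each count. Clusters are runs of cytosines with gaps of at most 200 bp. The rule named each interval cytosine, each flank cytosine called and the flank cytosine with the most reads per gene. The members, windows and tests were chosen with earlier results of these data known, and the class of a 40-point tissue gap after the values were seen.

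Depth summed to 302474482 (sGC) and 273684449 (control) readings in the hippocampus, and to 323883199 (sGC) and 269116901 (control) in the blood. In simulated reads at 200000 cytosines of the hippocampus, the Fisher test recovered 32.5% of 200 shifts of 20 percentage points and 76.0% of shifts of 40, and in the blood 37.0% and 81.0%. The simulated reads held counting error only, with no spread between animals. They were adjusted over those 200000 cytosines and not over a whole tissue, so the shares do not carry over to the real tests. Genes related to the members and cell type markers were to be read only with positions on cavPor3, and are not used here. Computation used Python 3.11.15 with scipy 1.17.1, numba 0.67.0, pandas 2.3.3 and numpy 2.4.6, and plots used matplotlib 3.10.9.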

Additional observations from a re-analysis of the deposited data

How the results depend on the processing

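The minimum coverage, the minimum difference, the test, the handling of strands, the weighting of cytosines and the cluster gap were changed 1 at a time. The number of flank cytosines called between the tissues, 16 of 24 in controls and 11 of 24 with sGC exposure, moved most. In controls it was 10 with a minimum difference of 20 percentage points, and 4, all of them higher in the blood, with the chi-square test divided by the genome-wide inflation factor of 3.30. With sGC exposure it was 2 by that test (inflation factor 3.39), again higher in the blood, so that all *DHRS3* flank calls (4 and 1) were lost. The counts of 0 for the exposure and for the difference between the tissues in the change stayed at 0 under each alternative. A count of 0 cannot be lowered by a stricter threshold or test. Other alternatives, such as summing the strands of a CpG, could have raised it and did not. With the small shares called in the series, this is still no sign of stability. The summed difference of each interval kept its sign under each alternative. The intervals were chosen for this difference, so its sign was largely set beforehand, and no stability is read from it. Taking only the cytosines listed in both tissues left the sums unchanged, as did the plus strand alone for *MEF2C*. On the minus strand alone, that of *FXYD6* in the blood was -12.2 percentage points instead of -8.82, and the gap between the tissues in controls was -66.8 instead of -70.6. For *MEF2C*, the minus strand gave no value, since its interval has no such cytosine. No paired analysis was possible because the animals of a group are summed, and leaving out an animal was not possible for the same reason.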
